A study of Mus musculus with 18 samples.

Results

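The 10 genes described here are Gatm, Gpr149, Snhg6, Tmem87a, Alad, Mbnl3, Esm1, S100a4, Grb14 and Kcnab1, selected on a difference in RNA level between genotypes in mouse embryonic fibroblasts that had received no TGFb. They were picked as genes other than myeloid ones, although S100a4 is also made by myeloid cells and Gatm followed the macrophage markers between genotypes. All probe sets annotated to them were taken, 16 of the 45101 on the array. 12 of the 16 rose above a dim level of log2 5 in at least 2 of the 18 arrays, and all 10 genes had at least 1 such probe set, among 10078 genes measured in this way. The genes were thus chosen by their log2 levels in the untreated arrays, and their values there are a description with no test. The tests below compare arrays of TGFb-treated cells, whose levels the choice did not use. They are not independent of the choice, since the untreated arrays enter the estimate of the spread that all comparisons share. Treated and untreated cells may also come from the same embryos or cultures.

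RNA of mouse embryonic fibroblasts, primary cells grown from whole embryos (E12.5 to E14.5) minus head and liver, was measured on 18 Affymetrix arrays. The arrays form 9 groups of 2: wt, heterozygous and homozygous cells, each without treatment, after 4 h and after 24 h of TGFb1 at 5 ng/mL. By the title of the series the mice carry a point mutation of TGFBR1, the type I receptor, whereas the design text speaks of a TGFb1 mutant and adds that it is constitutively active. The labels give neither the position of the mutation nor the strain. They do not tell whether both arrays of a group are separate embryos or cultures. By their Xist RNA, given with Kcnab1 below, both arrays of each wt and homozygous pair came from different cells. For the heterozygous pairs this is not known. The p-values below measure only how far these arrays spread, which in heterozygous pairs may be technical. The labels also do not say whether treated and untreated cells came from the same embryos. If they did, a difference between embryos or cultures that chose a gene untreated would be seen again after TGFb1. Same-numbered arrays of a genotype mostly ran together, as given under the processing. Tgfbr1 itself was measured at log2 10.10 to 10.94 and did not pass the test in any of the 4 comparisons of a mutant with wt after TGFb1, and the array carries no probe for a point mutation, so this level does not check the genotypes.

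TGFb ligands bind a pair of receptor kinases, and the type I receptor TGFBR1 then phosphorylates SMAD2 and SMAD3, which enter the nucleus and act on target genes. In fibroblasts the pathway is known for driving extracellular matrix production and the myofibroblast state. The 10 genes are not one pathway: they are enzymes of creatine and haem synthesis (Gatm, Alad), membrane proteins (Gpr149, Tmem87a, Kcnab1), RNA-level regulators (Snhg6, Mbnl3), secreted or calcium-binding proteins (Esm1, S100a4) and a signalling adaptor (Grb14).

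All 8 fibroblast markers examined were measured, with a mean over the list of log2 12.62 to 13.36 in the 18 arrays, and 0 of 8 passed the test between genotypes. The 12 measured macrophage markers, of 13 listed, stood higher in the mutants: the sum of their intensities was 1710 to 12860 in wt arrays, 20500 to 34820 in heterozygous arrays and 14340 to 27260 in homozygous arrays. Of these 12 markers, 3 and 2 passed the test at 4 h and 8 and 0 at 24 h, in heterozygous and homozygous cells against wt. In these bulk cultures fewer cells of a type and less RNA per cell cannot be told apart. The 7 measured skeletal muscle markers, of 8 listed with Myod1 under log2 5 in every array, had median differences between -0.88 and -1.16 in the 4 comparisons of a mutant with wt after TGFb1, with 0 of 7 past the test. Des, the gene of desmin, was on the other side, at group means of 9.31 in wt, 10.15 in heterozygous and 9.66 in homozygous cells at 4 h and 7.95, 8.77 and 8.30 at 24 h, and the cardiac troponin gene Tnnt2 was so in heterozygous cells at 4 h (9.77 against 9.56 in wt).

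Without TGFb1, Gatm and Tmem87a were the members whose RNA stood higher in heterozygous cells, and the other 8 stood lower. Relative to wt the log2 differences of group means in untreated heterozygous and homozygous cells were 3.49 and 2.07 for Gatm, -2.17 and -2.13 for Gpr149, -1.51 and -1.35 for Snhg6, and 0.97 and 0.03 for Tmem87a. They were -0.53 and -1.67 for Alad, -1.11 and -1.53 for Mbnl3, -1.12 and -1.88 for Esm1, -1.23 and -1.50 for S100a4, -0.99 and -0.93 for Grb14 and -1.34 and -1.73 for Kcnab1. These are the values that chose the genes, and nothing is read from their size. Of all 10078 genes, 0.923% passed the test in untreated heterozygous against wt cells and 1.77% in untreated homozygous against wt cells.

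**Figure D1:**
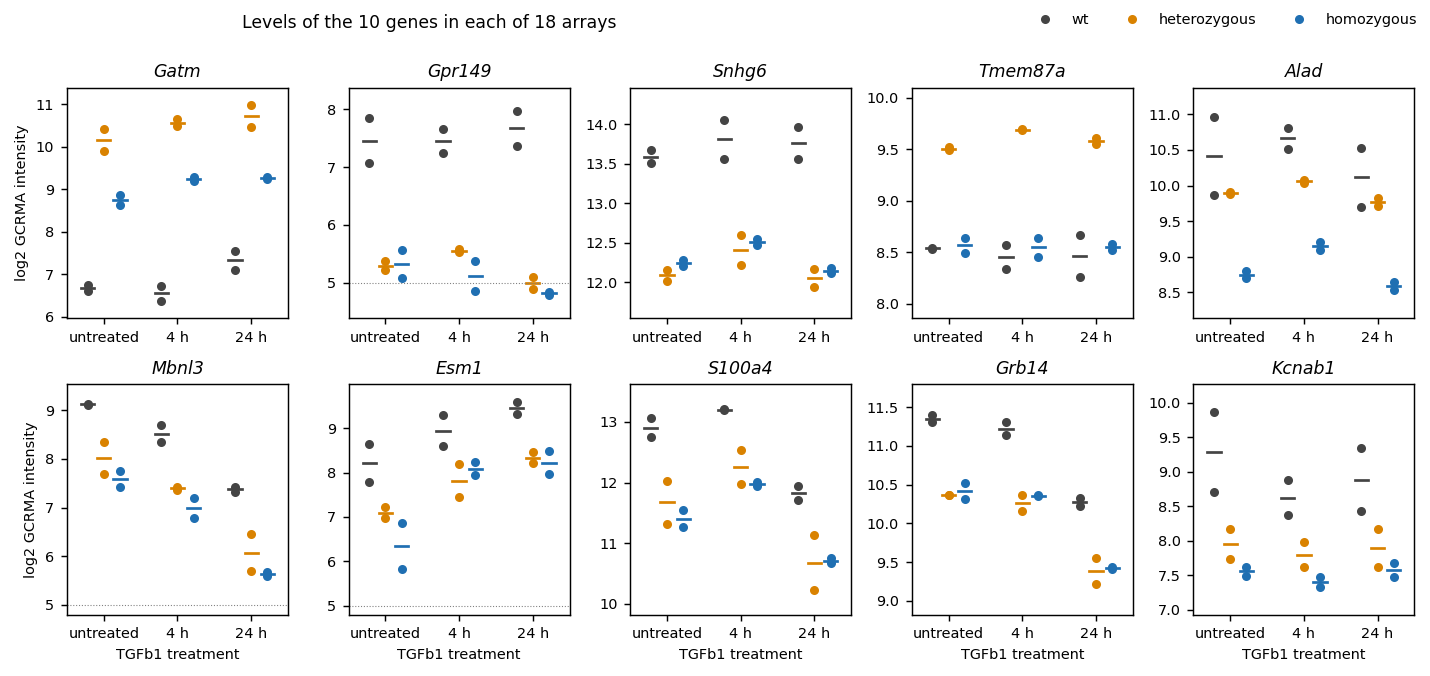
log2 intensity of each of the 10 genes in each of the 18 arrays (1 panel a gene, brightest probe set), by TGFb1 treatment on the horizontal axis and genotype in colour, with dots for arrays and bars for the mean of 2 arrays. Gatm lies between 6.37 and 7.54 in wt arrays and from 8.62 up in mutant arrays, and the dotted line marks the dim level of log2 5.

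The differences found without TGFb1 were followed into the cells given TGFb1, with each mutant compared with wt at 4 h and at 24 h. 4 of the 10 genes passed the test in all 4 comparisons: Gatm was higher in both mutants, and Gpr149, Snhg6 and Grb14 were lower in both. Mbnl3 passed in 3 of the 4. Tmem87a passed in 2 of the 4, both of them heterozygous against wt, and Alad in 2 of the 4, both of them homozygous against wt. Esm1, S100a4 and Kcnab1 passed in 0 of the 4. When the spread was taken from the 4 arrays of a comparison alone, Gatm in heterozygous cells at 4 h still passed (adjusted p = 0.0292 in limma), and all other calls of a member in these comparisons were lost, with adjusted p from 0.138 to 0.405. With array weights the calls lost were Gpr149 and Grb14 in heterozygous cells at 4 h (adjusted p = 0.117 and 0.0603) and Grb14, Alad and Mbnl3 in homozygous cells at 4 h (adjusted p = 0.0916, 0.0831 and 0.314).

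In heterozygous cells at 4 h, 5 of 10 genes passed, 2 higher and 3 lower, where 1.43% of all genes passed. In homozygous cells at 4 h, 6 of 10 passed, 1 higher and 5 lower, again against 1.43% of all genes. In heterozygous cells at 24 h, 6 of 10 passed, 2 higher and 4 lower, against 1.22%. In homozygous cells at 24 h, 6 of 10 passed, 1 higher and 5 lower, against 0.486%. The median log2 difference of the 10 genes was -0.95, -1.23, -1.06 and -1.27 in the same order, where the median of all genes was 0.01, 0.03, 0.02 and 0.00. The comparisons of a time share the same 2 wt arrays, and the genes were picked for such a difference in untreated cells, so the shares describe whether the difference was still there and not an independent set of genes.

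**Figure D2:**
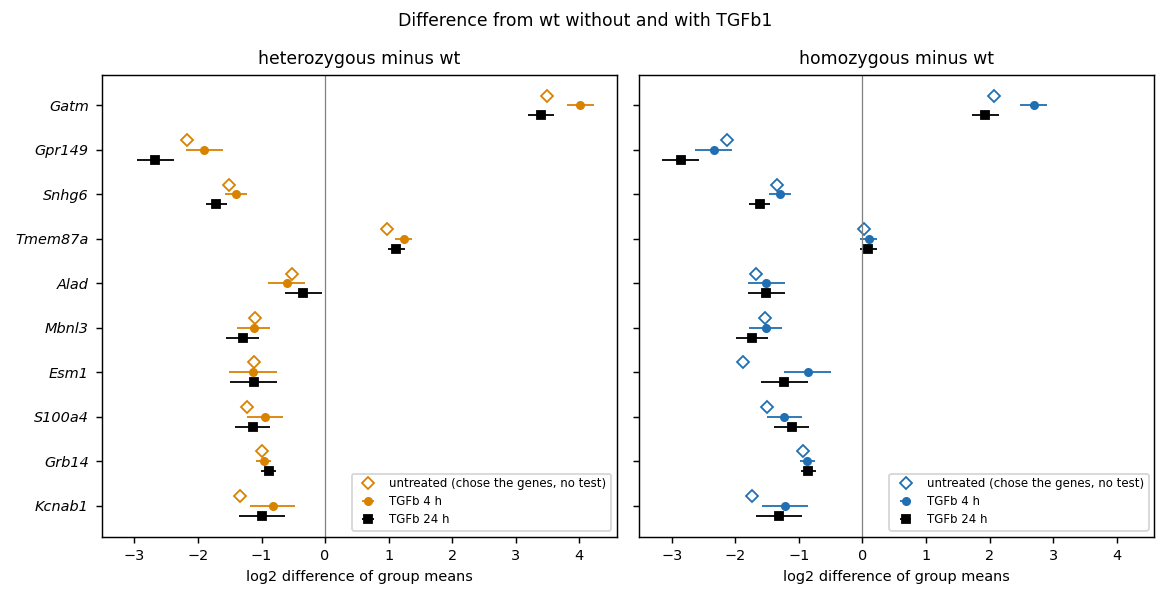
log2 difference of each gene from wt, for heterozygous cells (left) and homozygous cells (right), with bars of 1 standard error of the fit for the treated cells. Open diamonds are untreated cells, which chose the genes and carry no test; filled points after 4 h and 24 h of TGFb1 lie on the same side of 0 as the diamonds for every gene, with Tmem87a in homozygous cells within 0.10 of 0.

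Gatm encodes glycine amidinotransferase, which makes guanidinoacetate in the first step of creatine synthesis. In wt arrays its log2 level was 6.75 and 6.59 untreated, 6.37 and 6.73 at 4 h, and 7.11 and 7.54 at 24 h. In heterozygous arrays it was 10.41 and 9.91, then 10.64 and 10.49, then 10.98 and 10.46, and in homozygous arrays 8.62 and 8.87, then 9.20 and 9.29, then 9.23 and 9.29. The 3 genotypes did not overlap at any time: every heterozygous array lay above every homozygous array, and every homozygous array above every wt array. At 4 h Gatm was 16.2-fold higher in heterozygous cells (log2 difference 4.01, SE 0.21, adjusted p = 9.11e-07 in limma) and 6.48-fold higher in homozygous cells (adjusted p = 0.000117). At 24 h it was 10.5-fold higher in heterozygous cells (log2 difference 3.40, adjusted p = 7.15e-06) and 3.82-fold higher in homozygous cells (log2 difference 1.93, adjusted p = 0.00107).

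Gatm followed the macrophage markers between genotypes, but not with time. Its Pearson correlation with their mean log2 level was 0.868 over 18 arrays, which share genotype and culture, and its most similar genes were Itgal, a leukocyte integrin subunit, at 0.965 and Arrb2, a beta-arrestin, at 0.962. Itgal was itself higher in both mutants, by 2.59 and 1.42 at 4 h in heterozygous and homozygous cells. With time the markers and Gatm went opposite ways. The macrophage mean was 9.29 to 9.66 in untreated heterozygous arrays and 8.72 to 9.3 at 24 h. In homozygous arrays it was 8.81 to 8.94 and 8.1 to 8.43, and in wt arrays 6.21 to 7.37 and 5.6 to 6.74. The group mean of Gatm rose from 10.16 to 10.72, from 8.74 to 9.26 and from 6.67 to 7.32 in the same order. A fit with the macrophage mean of each array as a covariate gave Gatm differences from wt of 3.29 and 2.11 at 4 h. At 24 h they were 2.57 and 1.32, each time in heterozygous and homozygous cells. The adjusted p in limma was 4.15e-05 and 0.000441 at 4 h and 0.000303 and 0.00643 at 24 h. The macrophage mean was 5.6 to 7.95 in wt and 8.1 to 9.68 in mutant arrays, without overlap. This covariate therefore cannot separate genotype from macrophage RNA, here or for the members below. A direct comparison of the mutants placed Gatm lower in homozygous than in heterozygous cells at 24 h (log2 difference -1.46, adjusted p = 0.0367), while the value at 4 h was -1.32 (adjusted p = 0.0778).

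**Figure D3:**
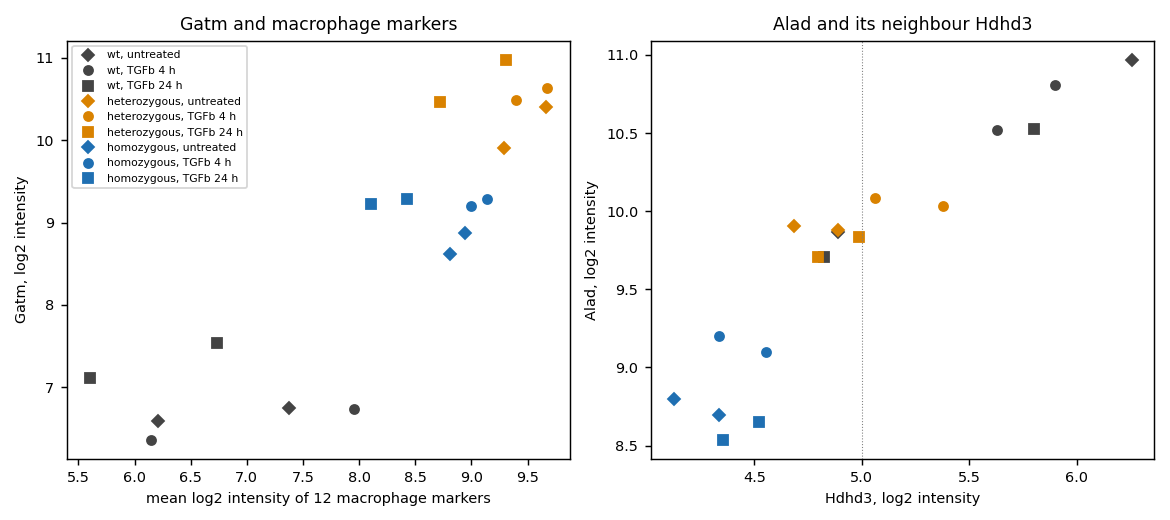
Left: Gatm against the mean log2 intensity of the 12 macrophage markers, 1 point an array; the wt arrays sit at 5.6 to 7.95 on the marker axis and the mutant arrays at 8.1 to 9.68. Right: Alad against Hdhd3, the measured gene next to it on chromosome 4, where 12 of the 18 arrays lie left of the dotted dim level of log2 5.

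The promoter of Gatm is shown because Gatm passed the test in all 4 comparisons and followed the macrophage markers between genotypes. It is given as the 250 bases before the gene's start in RefSeq (GRCm38.p6, chr2:122611278-122611527, minus strand), 5′ to 3′, with CCAAT or its reverse complement in capitals:
Gatm: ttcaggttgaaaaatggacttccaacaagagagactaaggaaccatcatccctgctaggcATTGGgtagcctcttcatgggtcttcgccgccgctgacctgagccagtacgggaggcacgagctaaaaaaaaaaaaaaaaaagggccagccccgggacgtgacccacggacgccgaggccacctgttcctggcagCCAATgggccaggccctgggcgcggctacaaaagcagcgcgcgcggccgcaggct
It holds 2 CCAAT matches. CCAAT on either strand was present in 33.8% of 32851 promoters of that length, and in 3 of the 11 promoters listed for the members.

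Of 6 other listed genes of creatine metabolism 3 were measured, and 0 passed in any of the 6 comparisons of a mutant with wt. Gamt, the methyltransferase of the next step, fell from 4 h to 24 h of TGFb1, with log2 changes of -1.86 in wt, -1.78 in heterozygous and -2.46 in homozygous cells. Slc6a8, the creatine transporter, rose over the same interval by 0.74, 0.53 and 0.68.

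Alad encodes delta-aminolevulinate dehydratase, the second enzyme of haem synthesis. Alad read 9.87 and 10.97 untreated, 10.81 and 10.52 at 4 h, and 10.52 and 9.70 at 24 h in wt arrays. Heterozygous arrays gave 9.88 and 9.90, then 10.04 and 10.08, then 9.83 and 9.71, and homozygous arrays 8.80 and 8.70, then 9.20 and 9.10, then 8.65 and 8.54. The homozygous arrays lay below all others at every time, the wt pairs were up to 1.10 apart, and the heterozygous arrays overlapped the wt pair untreated and at 24 h. Homozygous cells had 2.85-fold less Alad RNA than wt at 4 h (log2 difference -1.51, SE 0.29, adjusted p = 0.0258 in limma) and 2.86-fold less at 24 h (adjusted p = 0.0407). In heterozygous cells the differences were -0.60 (adjusted p = 0.422) and -0.34 (adjusted p = 0.859). The test of homozygous against heterozygous cells gave -0.91 at 4 h and -1.17 at 24 h, with adjusted p of 1.0 and 0.865.

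Both results of Alad in homozygous cells changed with the arrays used. Without homozygous replicate 1 or 2 the adjusted p was 0.118 or 0.228 at 4 h and 0.204 or 0.349 at 24 h, and without wt replicate 1 it was 0.194 at 24 h, where the difference was -1.11. With the macrophage mean as a covariate the homozygous differences were -0.67 and -0.65 (adjusted p = 0.152 and 0.26 in limma). Over the 18 arrays the correlation of Alad with the mean of the skeletal muscle markers was 0.827. The other members that were lower in both mutants had values from 0.432 for Kcnab1 to 0.757 for S100a4. The 6 erythroid markers on the array, Alas2 and the globin gene Hba-a1 among them, stayed under log2 5 in every array. Of the other haem synthesis genes 6 of 8 were measured and 0 passed between genotypes; Cpox, coproporphyrinogen oxidase, rose from 4 h to 24 h by 0.79, 0.94 and 0.81 in wt, heterozygous and homozygous cells.

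Gpr149 is an orphan G protein-coupled receptor, and its brighter probe set was near the dim level in every mutant group. The wt arrays gave 7.85 and 7.07 untreated, 7.65 and 7.25 at 4 h, and 7.37 and 7.97 at 24 h for Gpr149. The heterozygous arrays gave 5.21 and 5.37, then 5.58 and 5.53, then 5.10 and 4.89, and homozygous arrays 5.56 and 5.09, then 5.37 and 4.85, then 4.78 and 4.84. The lowest wt array stood above the highest mutant array, and the mutants overlapped each other untreated. At 4 h Gpr149 was 3.73-fold lower in heterozygous cells (log2 difference -1.90, SE 0.29, adjusted p = 0.00454 in limma) and 5.06-fold lower in homozygous cells (log2 difference -2.34, adjusted p = 0.00177). The dim level was not reached by 1 of the 2 homozygous arrays at 4 h and 1 of the 2 heterozygous arrays at 24 h, so folds there rest partly on dim values. At 24 h Gpr149 was 6.38-fold lower in heterozygous cells as measured (adjusted p = 0.000499). Both homozygous arrays at 24 h lay under the dim level, so Gpr149 was at least 6.37-fold lower there (measured log2 difference -2.86, adjusted p = 0.000939).

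The second probe set of Gpr149 was too dim for the fit, with 1 of 18 arrays at or above log2 5, and read 4.36 to 5.19 in wt and 3.15 to 3.29 in mutant arrays. Leaving out heterozygous replicate 1 at 4 h ended that call of Gpr149 (-1.92, adjusted p = 0.0536). No other single array of the groups compared did so at either time.

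Tmem87a encodes a multipass membrane protein of the Golgi, and it differed between the mutants themselves. Levels of Tmem87a in wt arrays were 8.54 and 8.54 untreated, 8.34 and 8.57 at 4 h, and 8.66 and 8.26 at 24 h. The level in heterozygous arrays was 9.49 and 9.52, then 9.69 and 9.70, then 9.61 and 9.55. Those in homozygous arrays were 8.64 and 8.49, then 8.64 and 8.46, then 8.58 and 8.53, within or close to the wt range. Heterozygous arrays all lay above the other 12. Tmem87a was 2.36-fold higher in heterozygous than in wt cells at 4 h (log2 difference 1.24, SE 0.13, adjusted p = 0.000402 in limma) and 2.17-fold higher at 24 h (log2 difference 1.12, adjusted p = 0.000886). Homozygous cells differed from wt by 0.10 at 4 h and 0.09 at 24 h (adjusted p = 0.787 and 0.899).

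In the test of homozygous against heterozygous cells Tmem87a passed at both times, with -1.14 at 4 h (adjusted p = 0.0115) and -1.03 at 24 h (adjusted p = 0.0178). That comparison called 1 of the 10 members at 4 h, where 0.0198% of all genes passed, and 2 of the 10, Tmem87a and Gatm, at 24 h, where 0.0298% passed. These are 2 and 3 genes in all. The others were Pax1, a paired-box transcription factor, with a measured difference of 3.51 at 4 h, and Pif1, a DNA helicase, with -1.48 at 24 h. Both heterozygous arrays of Pax1 at 4 h were dim (2.71 and 3.14), as were both homozygous arrays of Pif1 at 24 h (4.31 and 3.89). The measured differences of Pax1 and Pif1 therefore do not give the size of the fold. Leaving out any 1 of the 4 arrays compared left 0 members past the threshold at either time. Tmem87a and Gatm both lie on chromosome 2, with 22 measured genes between them. Of 3 other measured genes of the same list as Tmem87a, 0 passed between genotypes.

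Kcnab1 encodes a beta subunit that associates with voltage-gated potassium channels. Its levels were 8.37 to 9.86 in wt, 7.62 to 8.17 in heterozygous and 7.33 to 7.68 in homozygous arrays. The lowest wt array stood above the highest mutant array. The wt pairs were 0.51 to 1.15 apart, wider than the homozygous pairs at 0.12 to 0.20. The differences of -0.83 and -1.22 at 4 h and -0.99 and -1.31 at 24 h, in heterozygous and homozygous cells, did not pass the limma test (adjusted p = 0.366, 0.115, 0.348 and 0.138). Of 8 other genes of potassium channel subunits listed, 0 were above the filter. A further probe set of Kcnab1 read 6.27 to 7.73 in wt and 4.61 to 6.35 in mutant arrays.

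The spread of Kcnab1 in wt followed Xist, the RNA that silences an X chromosome in female cells. Each wt pair holds 1 array with Xist at log2 11.27 to 11.64 and 1 at 1.58 to 1.61. Each homozygous pair holds 1 at 11.34 to 11.88 and 1 at 1.58 to 2.68, while all 6 heterozygous arrays are at 11.32 to 11.77. Every comparison of heterozygous with wt cells therefore differs in Xist RNA as well as in genotype. Tmem87a, called against wt only in heterozygous cells, had differences of 1.22 at 4 h and 1.10 at 24 h with Xist as a covariate. Both arrays of a wt or homozygous pair thus came from different cells. In all 3 wt pairs the array with more Xist had more Kcnab1, by 0.85 on average. In the homozygous pairs the same gap was 0.15. In each wt pair the array with more Xist also had the higher macrophage mean and more Acta1. In each homozygous pair its macrophage mean was the lower. Which of these the spread of Kcnab1 in wt goes with cannot be told apart over 3 pairs. With Xist as a covariate Kcnab1 passed the test in 3 of the 4 comparisons: homozygous cells at 4 h (-1.25, adjusted p = 0.0306) and both mutants at 24 h (-1.26 and -1.33, adjusted p = 0.0442 and 0.0335). With the macrophage mean as a covariate Kcnab1 passed in all 4, with differences from -1.80 to -2.14 and adjusted p from 0.0152 to 0.0406. The macrophage mean does not overlap between wt and mutant arrays, and in each wt pair the array with more of it had more Kcnab1. The fit extends a trend seen within groups across that gap, so these calls cannot be read as a firmer difference. In that fit far more of all genes passed too, as given below.

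**Figure D4:**
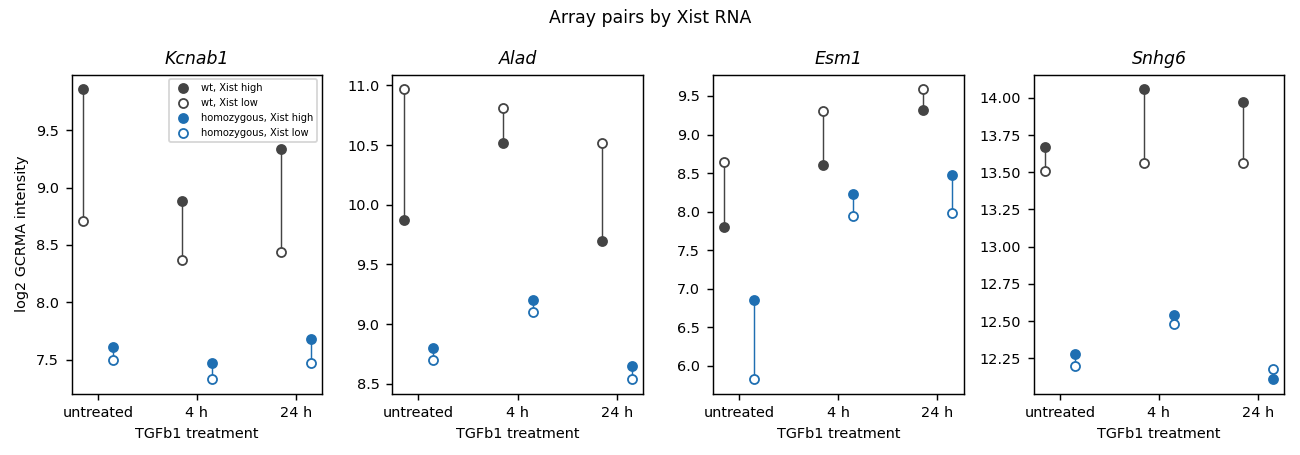
log2 intensity of Kcnab1, Alad, Esm1 and Snhg6 in the 3 pairs of wt arrays and the 3 pairs of homozygous arrays, with a filled point for the array of the pair with Xist RNA and an open point for the one without; lines join a pair. In wt the filled point is higher in 3 of 3 pairs for Kcnab1 and Snhg6 and lower in 3 of 3 for Alad and Esm1.

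In the wt pairs Alad ran the other way, with a mean gap (array with Xist minus array without) of -0.74, and so did Esm1 with -0.61. In homozygous pairs their mean gaps were 0.10 and 0.60. Gatm had a mean gap of 0.32 in wt, above 0 in 3 of 3 pairs, and of -0.13 in homozygous pairs, below 0 in 3 of 3. The mean gap of Mbnl3, which lies on the X chromosome, was -0.16 in wt. The parts of the embryos' sex and of the macrophage content in these spreads were not tested.

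Snhg6 is a long noncoding RNA whose introns host a small nucleolar RNA. Snhg6 read 13.68 and 13.51 untreated, 13.56 and 14.06 at 4 h, and 13.56 and 13.97 at 24 h in wt arrays. Heterozygous arrays read 12.16 and 12.01, then 12.60 and 12.22, then 12.16 and 11.94, and homozygous arrays 12.28 and 12.20, then 12.54 and 12.47, then 12.11 and 12.18. Every wt array lay above every mutant array, and the mutants lay close together. Snhg6 was 2.64-fold lower in heterozygous cells at 4 h (log2 difference -1.40, SE 0.17, adjusted p = 0.00105 in limma) and 2.46-fold lower in homozygous cells (adjusted p = 0.00292). At 24 h it was 3.27-fold and 3.07-fold lower (adjusted p = 0.000289 and 0.000949). Without homozygous replicate 2 the call at 4 h was lost (-1.27, adjusted p = 0.0519).

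Snhg6 and Gpr149 were the 2 members most alike, with a Pearson correlation of 0.952 over 18 arrays that share genotype and culture. The untreated arrays that chose both genes for a difference from wt are among the 18, so a high value was favoured in advance. The next gene most like Snhg6 was Acta1, skeletal muscle actin, at 0.90. With the macrophage mean as a covariate the differences of Snhg6 were larger, -2.11 and -1.87 at 4 h and -2.52 and -2.21 at 24 h. Of the other small nucleolar RNA host genes 12 of 15 were measured, and 0 passed in any of the 6 comparisons of a mutant with wt. From 4 h to 24 h, 0 rose and 4 fell in wt, 1 rose and 6 fell in heterozygous and 1 rose and 5 fell in homozygous cells. Snhg16 changed by -1.01, -1.17 and -1.10 and Snhg17 by -0.91, -0.76 and -0.81 in these genotypes. Snhg6 itself differed between those times by -0.04, -0.35 and -0.36, with adjusted p of 0.869, 0.13 and 0.113.

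Mbnl3 belongs to the muscleblind family of RNA-binding splicing regulators. Its wt levels were 9.11 and 9.13 untreated, 8.69 and 8.35 at 4 h, and 7.42 and 7.32 at 24 h. Its levels in heterozygous arrays were 7.68 and 8.34, then 7.37 and 7.42, then 5.70 and 6.45, and in homozygous arrays 7.75 and 7.43, then 7.20 and 6.79, then 5.60 and 5.67. At each time both wt arrays stood above all 4 mutant arrays, and in each genotype the arrays at 24 h were the lowest. Mbnl3 was 2.87-fold lower in homozygous cells at 4 h (log2 difference -1.52, SE 0.25, adjusted p = 0.0125 in limma). At 24 h it was 2.46-fold lower in heterozygous cells (log2 difference -1.30, adjusted p = 0.0281) and 3.33-fold lower in homozygous cells (log2 difference -1.74, adjusted p = 0.00902). In heterozygous cells at 4 h the difference of -1.13 missed the threshold (adjusted p = 0.0501).

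A further probe set of Mbnl3 read 6.91 and 7.35 in untreated wt arrays and 4.80 and 4.72 at 24 h, where both mutants lay at 3.55 to 4.37. At 24 h this probe set was under log2 5 in every array of wt and of both mutants, so the differences there compare only dim values. Its differences from wt were -1.39 and -1.53 at 4 h and -0.43 and -1.10 at 24 h, in heterozygous and homozygous cells. None passed in limma over 17442 probe sets (adjusted p from 0.0615 to 0.906). Averaging the probe sets ended the call of Mbnl3 in heterozygous cells at 24 h and brought that at 4 h past the threshold. With the macrophage mean as a covariate the 3 calls of Mbnl3 were lost (-1.06, -0.65 and -1.25 for homozygous cells at 4 h, heterozygous at 24 h and homozygous at 24 h, with adjusted p of 0.0605, 0.371 and 0.064). At 4 h in homozygous cells the call was also lost without homozygous replicate 2 (-1.32, adjusted p = 0.174). At 24 h it was lost in heterozygous cells without wt replicate 1, wt replicate 2 or heterozygous replicate 1 (-1.25, -1.35 and -0.93), and in homozygous cells without wt replicate 1, homozygous replicate 1 or homozygous replicate 2 (-1.69, -1.70 and -1.77). The 2 other muscleblind genes passed in none of the comparisons of a mutant with wt, and from 4 h to 24 h Mbnl1 rose by 0.40, 0.65 and 0.69 in wt, heterozygous and homozygous cells, while Mbnl3 fell.

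S100a4 is a small calcium-binding protein often used as a fibroblast marker and also made by myeloid cells. S100a4 had wt levels of 12.75 and 13.06 untreated, 13.21 and 13.19 at 4 h, and 11.71 and 11.94 at 24 h. Levels in heterozygous arrays were 11.32 and 12.03, then 11.97 and 12.54, then 10.23 and 11.14, and in homozygous arrays 11.27 and 11.55, then 11.94 and 12.01, then 10.67 and 10.75. The wt pair lay above the mutant arrays at each time, with heterozygous pairs 0.58 to 0.91 apart. The differences of -0.95 and -1.23 at 4 h and -1.14 and -1.11 at 24 h, in heterozygous and homozygous cells, did not pass the limma test (adjusted p = 0.153, 0.0506, 0.0857 and 0.112). The value in homozygous cells at 4 h passed without wt replicate 1 (-1.21, adjusted p = 0.0495), and that in heterozygous cells at 24 h passed without heterozygous replicate 2 (-1.60, adjusted p = 0.0223). Of 12 other S100 genes 5 were measured and 0 passed between genotypes. With time 3 of the 5 fell in wt, 4 in heterozygous and 3 in homozygous cells, S100a1 by the largest steps (-1.22, -0.86 and -1.07).

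Esm1 is a secreted proteoglycan known from endothelial cells. It read 7.80 and 8.65 in untreated wt arrays, 7.23 and 6.97 in heterozygous and 6.86 and 5.83 in homozygous arrays. After TGFb1 the levels were 8.60 to 9.59 in wt, 7.44 to 8.45 in heterozygous and 7.95 to 8.47 in homozygous arrays. At each time the mutants lay below wt, and the pairs were up to 1.02 apart. The differences from wt of -1.13 and -0.86 at 4 h and -1.12 and -1.23 at 24 h did not pass the limma test (adjusted p = 0.20, 0.293, 0.269 and 0.187). Relative to untreated cells Esm1 stood 0.73, 0.71 and 1.74 higher at 4 h and 1.23, 1.23 and 1.88 higher at 24 h in wt, heterozygous and homozygous cells, given as a description since the untreated arrays chose it. 6 of 8 endothelial markers, Pecam1, Cdh5, Kdr, Tek, Tie1 and Cldn5, were under log2 5 in every array, while Flt1 read 8.70 to 10.51 and Emcn 8.24 to 9.67. With the macrophage mean as a covariate the differences of Esm1 lay between -0.07 and -0.46.

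Grb14 is an adaptor that binds the insulin receptor and inhibits it, and its pairs were close, at most 0.32 apart. Grb14 levels in wt arrays were 11.30 and 11.39 untreated, 11.13 and 11.31 at 4 h, and 10.22 and 10.33 at 24 h. The heterozygous arrays read 10.36 and 10.36, then 10.16 and 10.36, then 9.22 and 9.55, and homozygous arrays 10.32 and 10.51, then 10.35 and 10.36, then 9.44 and 9.41. The wt arrays lay above the mutants at each time, and the mutants overlapped or nearly did. Grb14 was 1.95-fold lower in heterozygous cells at 4 h (log2 difference -0.96, SE 0.12, adjusted p = 0.00107 in limma) and 1.82-fold lower in homozygous cells (adjusted p = 0.00341). At 24 h it was 1.85-fold and 1.80-fold lower (adjusted p = 0.00232 and 0.00606). The call in homozygous cells was lost at 4 h without homozygous replicate 2 (-0.87, adjusted p = 0.0567) and at 24 h without either homozygous array (-0.87 and -0.83, adjusted p = 0.0621 and 0.0901).

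Of 6 listed genes of the Grb7 family and insulin receptor signalling 5 were measured, and 0 passed between genotypes. From 4 h to 24 h the insulin receptor gene Insr rose by 0.85, 0.73 and 0.99 and Irs1, a receptor substrate, by 1.14, 1.38 and 1.38 in wt, heterozygous and homozygous cells. Grb14 fell over the same interval.

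The change from 4 h to 24 h of TGFb1 was compared within each genotype to see which members moved with time. Mbnl3, S100a4 and Grb14 fell in all 3 genotypes. In wt, heterozygous and homozygous cells the log2 changes were -1.15, -1.32 and -1.36 for Mbnl3, -1.38, -1.57 and -1.26 for S100a4, and -0.95, -0.87 and -0.93 for Grb14. Their largest adjusted p was 0.00501 in limma. Gatm rose in wt by 0.78 (adjusted p = 0.0135) and differed by 0.16 and 0.01 in the mutants. Thus 4 of 10 members passed in wt, 1 higher and 3 lower, and 3 of 10 in each mutant, all lower, where 34.3%, 32.2% and 36.9% of all genes passed in wt, heterozygous and homozygous cells, so the members' share is near the background.

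No change of a genotype difference between the times passed the test. The change of the heterozygous difference from wt between 4 h and 24 h passed for 0 of 10 members and 0% of all genes in limma, and so did that of the homozygous difference; at an unadjusted p under 0.05 there were 416 and 401 of the 10078 genes. For Gatm the change was -0.62 (SE 0.30) in heterozygous and -0.76 in homozygous cells, for Grb14 0.08 (SE 0.17) and 0.02, and for Mbnl3 -0.17 (SE 0.36) and -0.21. The fit was tested on simulated data for homozygous against wt cells at 4 h. There it found 43.3% of 1.5-fold, 73.1% of 2-fold and 97% of 4-fold changes among 10078 genes, and called 7 unchanged genes. The simulated arrays had independent noise and the same spread in every group, unlike these arrays. The changes of a difference, whose SE is larger, were not simulated.

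**Figure D5:**
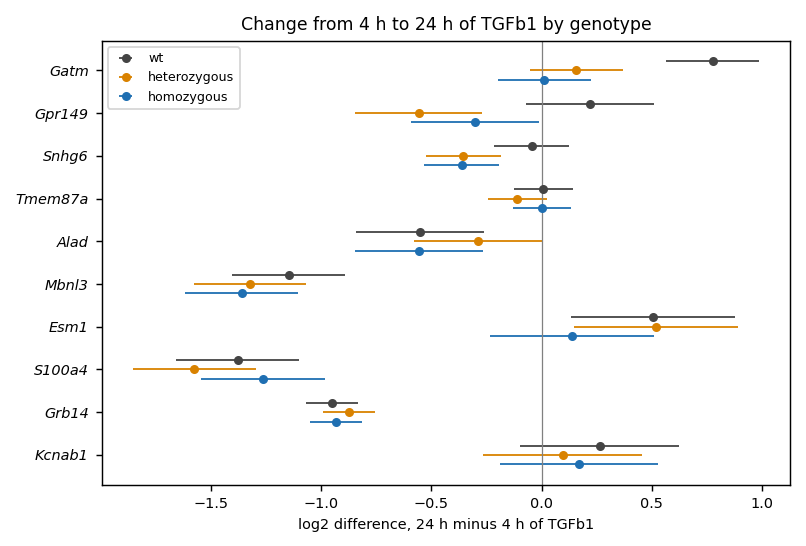
log2 difference of each gene between 24 h and 4 h of TGFb1 in wt, heterozygous and homozygous cells, with bars of 1 standard error of the fit. Mbnl3, S100a4 and Grb14 lie at -0.87 or lower in all 3 genotypes, and Gatm in wt lies at 0.78.

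The promoters of the 3 genes that fell together are shown for comparison, again as the 250 bases before the start in RefSeq, GRCm38.p6, 5′ to 3′. They are Mbnl3 (chrX:51205991-51206240, minus strand), S100a4 (chr3:90603520-90603769, plus strand) and Grb14 (chr2:65022767-65023016, minus strand), with a TATAAA match in capitals:
Mbnl3: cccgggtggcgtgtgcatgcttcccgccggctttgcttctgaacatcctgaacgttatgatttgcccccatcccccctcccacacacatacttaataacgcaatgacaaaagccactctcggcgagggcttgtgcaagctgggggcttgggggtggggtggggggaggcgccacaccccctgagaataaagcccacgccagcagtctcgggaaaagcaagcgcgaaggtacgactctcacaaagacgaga
S100a4: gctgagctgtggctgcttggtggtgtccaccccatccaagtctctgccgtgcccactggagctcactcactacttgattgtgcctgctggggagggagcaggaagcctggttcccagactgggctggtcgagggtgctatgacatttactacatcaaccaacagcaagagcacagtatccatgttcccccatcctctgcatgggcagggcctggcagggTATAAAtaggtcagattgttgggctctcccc
Grb14: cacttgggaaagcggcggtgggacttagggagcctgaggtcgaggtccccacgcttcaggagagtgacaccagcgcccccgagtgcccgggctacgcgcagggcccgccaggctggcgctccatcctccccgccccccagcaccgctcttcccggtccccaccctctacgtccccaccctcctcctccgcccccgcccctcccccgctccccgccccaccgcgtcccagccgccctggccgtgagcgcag
S100a4 holds TATAAA, which 12.4% of the 32851 promoters of that length hold on either strand, and the other two do not. The SMAD-binding letters GTCTAGAC (0.167% of promoters) were in 0 of the members' 11 promoters, CAGACA (17.1%) in 1, a promoter of Kcnab1, and the AP-1 letters TGANTCA (6.75%) in 0. GC content was 59.2% for Mbnl3, 57.2% for S100a4 and 75.2% for Grb14. 8 of the 10 genes matched an entry of the promoter table; Snhg6 and Gpr149 are named only.

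Mbnl3, S100a4 and Grb14 also ran together over the arrays. They were grouped by their shared fall, and the untreated arrays that chose the members are included. The correlations between members below were therefore partly fixed by the choice. Pearson correlations over the 18 arrays, which share genotype and time, were 0.94 between Mbnl3 and Grb14, 0.923 between S100a4 and Grb14 and 0.858 between Mbnl3 and S100a4. The genes most like S100a4 were Fst, follistatin, at 0.969 and Rassf6 at 0.938. Those most like Grb14 were Cav1, caveolin 1, at 0.951 and Fst at 0.949, and those most like Mbnl3 were Cobll1 at 0.963 and Kif4, a kinesin, at 0.94. For Kcnab1 they were Tkt, transketolase, at 0.894 and Ly75 at 0.883, for Esm1 Etv4, an ETS transcription factor, at 0.854 and Polr1d at 0.837, and for Tmem87a Oard1 at 0.821 and Mrps26 at 0.809. Gatm ran against Snhg6, with -0.871.

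The members are spread over the genome: Gatm, Tmem87a and Grb14 on chromosome 2, Gpr149, Kcnab1 and S100a4 on 3, Alad on 4, Snhg6 on 1, Esm1 on 13 and Mbnl3 on X. Gpr149 and Kcnab1 have 3 measured genes between them. Tgfbr1 is also on chromosome 4, with 46 measured genes between it and Alad of 626 on that chromosome. Of the 93 genes that are measured neighbours of the members (5 on each side) and no members themselves, 1.08% passed in heterozygous and 2.15% in homozygous cells at 4 h, and 2.15% and 1.08% at 24 h, against 1.43%, 1.43%, 1.22% and 0.486% of all genes. No neighbour passed in both mutants at the same time.

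3 neighbours are named after their values were seen. Hdhd3, which lies next to Alad, was the gene most like it over the 18 arrays (Pearson correlation 0.929), at 4.83 to 6.25 in wt, 4.69 to 5.38 in heterozygous and 4.13 to 4.56 in homozygous arrays, and it passed no comparison. Spata5l1, the measured gene after Gatm, was lower in heterozygous cells at 4 h and 24 h, where both arrays were dim (at least 1.13-fold and 1.04-fold, adjusted p = 0.0113 and 0.0118), with 0.04 and -0.28 in homozygous cells. Cobll1, most like Mbnl3, lies next to Grb14, with which its correlation was 0.926.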

How the data were processed

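The RNA levels come from 18 Affymetrix arrays of cultured mouse cells. The deposited values are linear intensities, made by the authors with GCRMA (a background correction, normalization and probe set summary), per the submitters' processing notes, which name no version. They were used as log2. Of the 45101 probe sets, 64 controls, 932 with several gene symbols and 9160 with none were left out. The other 34945 have 1 symbol; RefSeq listed 34754 of these symbols, and 0 needed an update. Probe sets reaching log2 5 in 2 or more arrays were kept, each gene by its brightest one. Per array 39.55 to 40.4% of probe sets reached log2 5, with a median intensity of 8.416 to 9.163, so dim genes are measured poorly. Having only 2 arrays a group limits the precision.

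Groups came from the labels. One limma model (limma 3.58.1, R 4.3.3) with 9 group means and an intensity trend used all 18 arrays, leaving 9 residual degrees of freedom beside a median prior of 3.78. Moderated two-sided p-values were corrected by Benjamini-Hochberg across 10078 genes for each comparison; below 0.05 a gene passed. A group with both arrays under log2 5 gives only a bound on the fold. No scan date was known, so no batch was fitted. The fit was tested on simulated data.

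The members, the marker lists, the related genes and the tests were chosen with earlier results of these data known. Besides the members, the text names related genes that passed (at most 4 a family), the 2 genes most correlated with each member, and neighbours that passed in both mutants; neighbours named otherwise were chosen after their values were seen. Promoters and gene order come from RefSeq (GRCm38.p6).

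Other settings tried were dropping the filter, raising it to a mean log2 of 6, averaging a gene's probe sets, leaving out cross-hybridizing probe sets, quantile normalization, adding 16 before log2, weighting arrays, fitting only the compared groups, a replicate block, Xist or the macrophage mean as covariate, and leaving out each array in turn.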

Additional observations from a re-analysis of the deposited data

How the results depend on the processing

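Of 676 differences of a member from wt under an alternative, 589 kept their direction and side of the threshold, 54 lost a call, 28 gained one and 5 turned. The 5 were Alad in heterozygous cells at 4 h and 24 h with the macrophage covariate (0.43 and 0.84) and at 24 h without wt replicate 1 (0.066, to -0.752 without wt replicate 2), and Tmem87a in homozygous cells without wt replicate 1 at 4 h (-0.022, to 0.213 without wt replicate 2) and without wt replicate 2 at 24 h (-0.111, to 0.291 without wt replicate 1). The cause was not tested.

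Fitting only the groups compared, with 4 arrays, left 1 member for heterozygous and 0 for homozygous cells against wt at 4 h, and 0 and 0 at 24 h, of 1, 0, 0 and 0 genes in all; it left 0 members for homozygous against heterozygous cells at 24 h, 0 for 24 h against 4 h in wt and 5 in homozygous cells. With array weights 3 members passed at 4 h in each mutant (31 and 18 of all genes), 1 for time in wt and 5 in homozygous cells; all genes at 24 h were 193 and 206. For homozygous against heterozygous cells, 2 members passed at 4 h with the macrophage covariate or a crossed random block, and 1 at 24 h with no filter, quantile normalization, the Xist covariate or the replicate block. The macrophage covariate raised the calls of all genes to 1395 and 1245 at 4 h and 709 and 432 at 24 h in heterozygous and homozygous cells, and the Xist covariate to 263 and 119 in homozygous cells. A mean of log2 6 left 87 and 77 genes in heterozygous cells at 4 h and 24 h, and no filter left 81 at 24 h.

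Leaving out 1 array gave 4 to 5 members in heterozygous and 2 to 7 in homozygous cells at 4 h, and 5 to 7 and 3 to 6 at 24 h. It gave 0 for homozygous against heterozygous cells, 3 to 5 for time in wt, 3 in each mutant, and 0 for the changes of a difference. Of all genes it left 42 to 1220 and 16 to 1073 at 4 h, the highest in both without wt replicate 1, and 23 at 24 h in heterozygous cells without replicate 1 and 9 in homozygous cells without replicate 2.

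Replicate numbers did not pair arrays across genotypes: deviations of same-numbered arrays correlated at -0.192 to 0.186. Within a genotype they ran together, at 0.376 to 0.453 in heterozygous cells, 0.544 to 0.61 in homozygous cells and 0.571 for wt at 4 h and 24 h, except that untreated wt arrays ran against wt at 4 h and 24 h (-0.492 and -0.663). Xist RNA was high in wt replicate 1 untreated but in wt replicate 2 at 4 h and 24 h, and in homozygous replicate 1 throughout. Of all 36 pairs of groups 10 were over 0.1. With the replicate number as a block 6 and 7 members passed at 4 h and 7 and 6 at 24 h in heterozygous and homozygous cells (133, 135, 112 and 56 of all genes). Random blocks within genotype, added after seeing the data, gave 6, 7, 6 and 6, and with the untreated wt numbers crossed 6, 7, 7 and 7 (220 and 104 of all genes in homozygous cells at 4 h and 24 h). For 24 h against 4 h, the replicate block and the random blocks left 4, 3 and 3 members in wt, heterozygous and homozygous cells, and the crossed blocks 4, 4 and 4.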

Other observations

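Tgfb1, the gene of the ligand, stood higher in both mutants than in wt after TGFb1 and passed the test in limma in all 4 comparisons, by 0.50 and 0.47 at 4 h and 0.56 and 0.64 at 24 h in heterozygous and homozygous cells. Among the measured neighbours of members, Shox2, a homeobox gene, was lower in homozygous cells at 4 h (-0.86, adjusted p = 0.0448) and 24 h (-1.01, adjusted p = 0.0407), and Scn7a, a sodium channel gene near Grb14, was higher in homozygous cells at 4 h, where both wt arrays were dim (at least 2.13-fold, adjusted p = 0.0269), and in heterozygous cells at 24 h (1.84, adjusted p = 0.0476). These neighbours were chosen after their values were seen. The root-mean-square SD of a pair over all genes was 0.321 to 0.387 in the 3 wt groups and 0.183 to 0.222 in the 6 mutant groups.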
